A study of Mus musculus with 57 samples.

Results

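Pax3, Pax7, Myf5, Myod1, Myog, Myf6, Lbx1, Mymk and Mymx are the transcription factors that specify skeletal muscle cells and the membrane proteins that fuse them. These 9 genes, of 56860 in the count and TPM (length-scaled transcript abundance) tables, were found by gene name alone, and each name matched 1 row in both sets of tables. They were followed in 57 mouse RNA-seq libraries of embryos that were wild type (wt) or homozygous for a Hoxa5 null allele (Hoxa5-/-, also called mutants here) in which a neomycin cassette interrupts the homeobox, on a 129/Sv background. Trachea, lung and diaphragm at E15.5 and lung at E12.5 had 4 wt and 4 mutant libraries each. The somites of the cervical and upper thoracic levels, dissected away from the neural tube, had 4 wt and 3 mutant libraries at E10.5 and 4 of each at E12.5. Brown fat taken from between the shoulder blades (iBAT, E18.5) had 5 of each. The allele is lost from every cell of the embryo, so no tissue of a mutant is an internal control. Respiratory and diaphragm libraries (32) and somite and iBAT libraries (25) were made at separate centres and deposited as separate tables, so a difference in TPM between the tables cannot be told apart from the centre, and tests were run within a table only. All libraries are bulk tissue, in which fewer muscle cells and less RNA per muscle cell cannot be told apart.

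In the embryo, the paired-box factors Pax3 and Pax7 mark muscle progenitors of the dermomyotome, and Pax3 also marks dorsal neural tube and neural crest. Lbx1, a homeobox factor, marks progenitors that migrate away from the somites and is needed by those that enter the limb, and it also marks dorsal interneurons. The 4 myogenic regulatory factors are basic helix-loop-helix proteins that bind the E-box: Myf5, Myod1 and Myf6 (Mrf4) commit cells to the muscle fate and Myog drives their differentiation. Mymk (Myomaker) and Mymx (Myomixer, also called Myomerger) are membrane proteins that let differentiated myoblasts fuse into fibres.

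Myf5 and Myf6 lie on the same strand of chromosome 10, at chr10:107318769-107321995 and chr10:107328714-107330598 of GRCm39, with 6718 bases between them. Myod1 lies at chr7:46025898-46028523, Myog at chr1:134217727-134220286, Mymk at chr2:26951648-26962191 and Mymx at chr17:45911897-45913028. Pax3 (chr1:78077904-78173771), Pax7 (chr4:139464373-139560839) and Lbx1 (chr19:45221123-45224251) complete the set. Myod1, Myog and Mymk are among the members that rose together between the somite stages, and the 270 bases around the annotated start of each, 250 before it and 20 after, are shown here 5′ to 3′ on the gene's own strand from the GRCm39 assembly, with each E-box (CANNTG) in capitals.
Myod1: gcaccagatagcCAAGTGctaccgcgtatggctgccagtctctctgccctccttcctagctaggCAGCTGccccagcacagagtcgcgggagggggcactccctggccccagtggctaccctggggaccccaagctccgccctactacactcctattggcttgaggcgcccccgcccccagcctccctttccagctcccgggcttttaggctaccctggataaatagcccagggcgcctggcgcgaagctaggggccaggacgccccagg
Myog: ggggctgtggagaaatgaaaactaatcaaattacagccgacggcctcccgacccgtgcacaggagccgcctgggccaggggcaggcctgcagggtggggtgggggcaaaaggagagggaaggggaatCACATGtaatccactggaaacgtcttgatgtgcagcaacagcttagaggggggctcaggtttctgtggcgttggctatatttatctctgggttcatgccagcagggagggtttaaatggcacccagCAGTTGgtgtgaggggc
Mymk: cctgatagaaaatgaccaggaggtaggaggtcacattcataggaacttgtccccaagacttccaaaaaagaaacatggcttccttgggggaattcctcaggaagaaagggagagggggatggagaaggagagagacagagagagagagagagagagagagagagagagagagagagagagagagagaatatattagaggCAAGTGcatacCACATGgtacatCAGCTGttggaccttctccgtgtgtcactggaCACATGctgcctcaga
The windows are chr7:46025648-46025917 on the plus strand, chr1:134217477-134217746 on the plus strand and chr2:26962172-26962441 on the minus strand. Mymk had 4 E-boxes in its window, at positions -51, -40, -28 and 5 from the start, and the other members shown had 2 each. CANNTG reads the same on both strands, and 65.6% of 21846 promoter windows of the same length had at least 1, 31.9% at least 2 and 3.79% at least 4. The form CAGCTG, which is one case of CANNTG, stood in the Pax3, Myod1 and Mymk windows, of those described here, and in 13.3% of all windows. In the same window Pax3 and Myf6 had 1 E-box each, and the letters CANNTG did not occur in those of Pax7, Myf5 and Lbx1. A match is a stretch of letters and not a measured binding site.

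In wt, every member had a higher mean TPM in diaphragm and in somites of both ages than in trachea, lung and iBAT. This is a description, since it crosses tables. Myod1 in somites at E10.5 overlapped trachea and iBAT, and Myf6 in somites at E12.5 overlapped iBAT. Within the respiratory and diaphragm table, Myog reached 1364, 1556, 1270.4 and 1475 TPM in the wt diaphragm libraries, against 8.80, 6.35, 2.03 and 7.40 TPM in wt trachea and at most 0.779 TPM in wt lung at either age. Myog was the 53rd most abundant of the 17559 genes at 1 TPM or more in wt diaphragm by mean TPM, Mymk ranked 319, Myod1 367, Mymx 705 and Myf6 731. Pax3, Pax7, Lbx1 and Myf5 were lower on the TPM scale, with wt diaphragm means of 35.7 for Pax7, 37.8 for Lbx1, 34.9 for Myf5 and 5.06 for Pax3, and their ranks ran from 4871 (Lbx1) to 12410 (Pax3). The neighbouring levels of Lbx1, Pax7 and Myf5 overlapped between libraries.

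**Figure D1:**
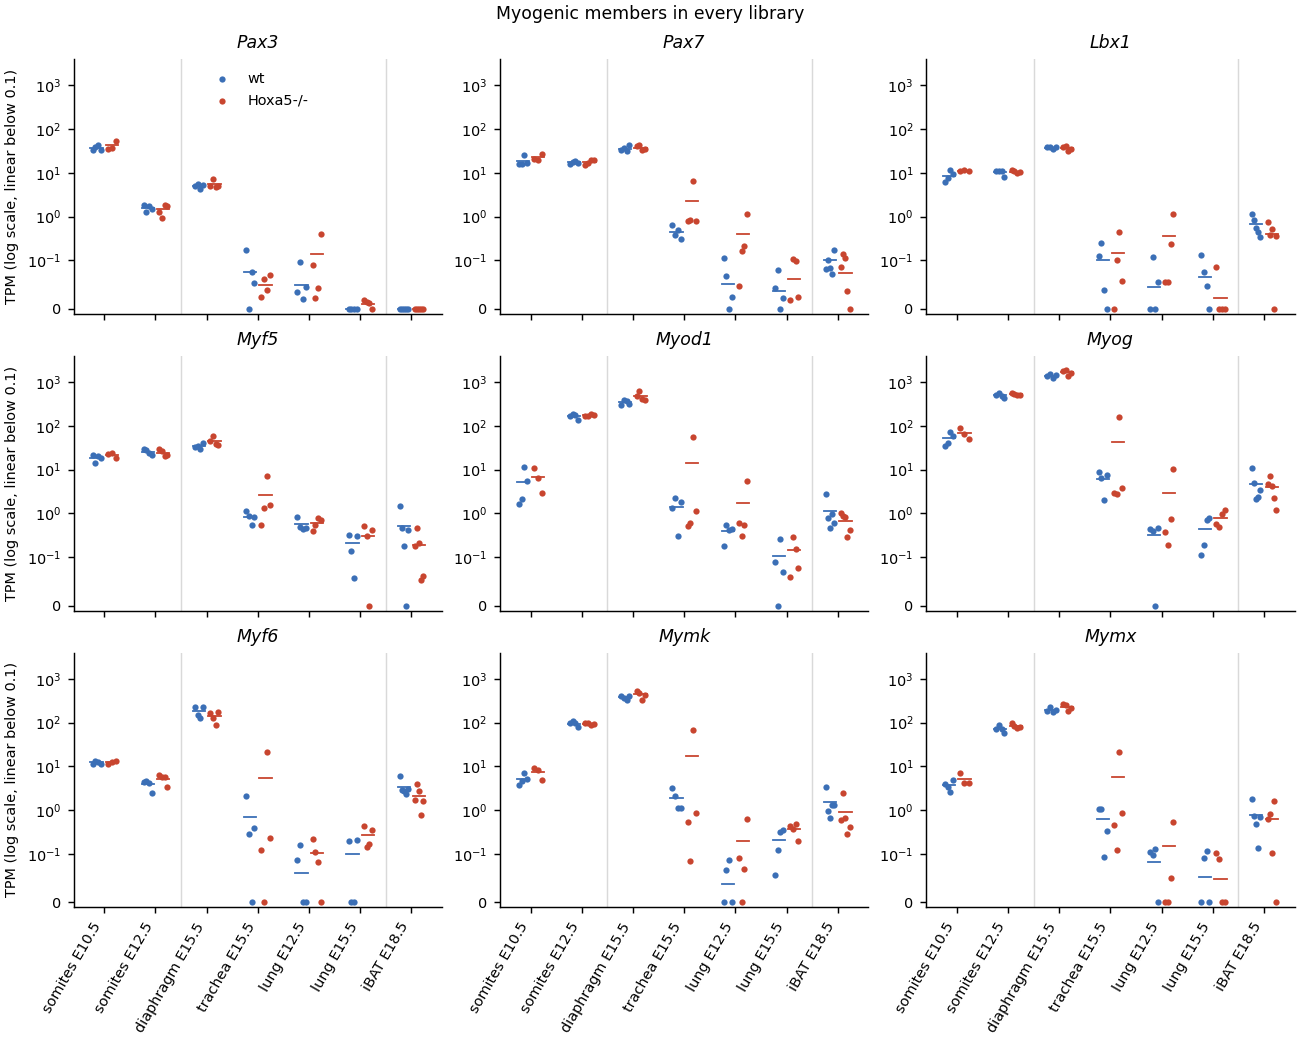
TPM of each member in every library, 1 point per library by tissue, age and genotype, with short lines at the group means, on an axis that is logarithmic above 0.1 TPM and linear below it. Wt diaphragm lay above every wt trachea and lung library for all 9 genes, and a single mutant trachea library stood far above the other trachea libraries, with Myog at 161 TPM.

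For 8 members wt diaphragm had the highest mean TPM of the 7 tissues and ages. Pax3 was the exception, with 37.7 TPM in wt somites at E10.5. Where this ranking crosses tables it is a description, since tissue cannot be told apart from the centre. For Myf5 the ranges of wt diaphragm and of wt somites at E12.5 also overlapped. In the plot of TPM by library, the ranges of the wt somites at both ages overlapped for Pax7, Myf5 and Lbx1 and were apart for the other 6 members, as for 56.2% of the genes tested between these ages. Wt iBAT kept a mean of 4.75 TPM of Myog, 3.41 of Myf6, 1.53 of Mymk and 1.11 of Myod1. The other 5 members were under 1 TPM there, and Pax3 had 0 counts in each of the 10 iBAT libraries. In wt lung no member reached a mean of 1 TPM at either age, and in wt trachea Myog, Mymk and Myod1 did.

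Between E10.5 and E12.5 the wt somites lost Pax3 and gained the differentiation and fusion genes, while Pax7 and Lbx1 did not pass the test. Pax3 was 33.7, 39.5, 43.9 and 33.7 TPM in the wt libraries at E10.5 and 1.84, 1.24, 1.72 and 1.52 TPM at E12.5. The ages did not overlap, and Pax3 fell by 4.64 on the log2 scale (SE 0.13), which is 24.9-fold. Markers of neural tube and neurons fell with it, with 13 of 14 called lower in wt, beside 18.4% of 19773 genes. Their summed level went from 1071–1640 TPM at E10.5, in tissue dissected free of the neural tube, to 173–440 TPM at E12.5. Their part in the fall of Pax3 was not tested. Pax7, which also marks the neural tube, was 15.8 to 25.2 TPM at E10.5 and 16.2 to 18.6 TPM at E12.5. Its log2 difference was -0.14 (95% interval -0.41 to 0.12). Lbx1 was 6.28 to 11.7 TPM and then 8.19 to 11.1 TPM, with a log2 difference of 0.19 (-0.17 to 0.55). The Pax3 to Pax7 ratio of TPM went from 2.09 ± 0.299 to 0.0917 ± 0.0181 (SD, n = 4 each).

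The commitment factors did not move together. Myod1 went from 1.62, 2.16, 11.6 and 5.63 TPM to 168, 191, 176 and 140 TPM, a log2 rise of 4.98 (SE 0.37), or 31.6-fold. The E10.5 libraries were apart among themselves, and without wt replicate 3 at that age the rise was 5.69. Myf5 went from a mean of 18.46 TPM to one of 25.9 TPM with overlapping ranges, a log2 difference of 0.42 (SE 0.14) that passed the adjusted p (0.0219, edgeR quasi-likelihood test with Benjamini-Hochberg adjustment) at 1.34-fold, under the 1.5-fold minimum used for a call. Myf6 was 11.5, 13.1, 12.8 and 11.5 TPM at E10.5 and 4.30, 4.52, 4.26 and 2.49 TPM at E12.5. It fell by 1.72 on the log2 scale (SE 0.19), 3.29-fold, opposite to Myod1 and Myog.

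Myog and both fusion genes rose. Myog was 34.0, 41.3, 73.3 and 59.7 TPM at E10.5 and 511, 562, 478 and 445 TPM at E12.5, a log2 rise of 3.21 (SE 0.17), which moved it to rank 243 of 18252 genes at 1 TPM or more from rank 3615 of 17972. Mymk went from 3.83, 4.57, 7.11 and 5.18 TPM to 95.3, 106, 96.3 and 80.1 TPM, a log2 rise of 4.13 (SE 0.15). Mymx went from 3.92, 3.43, 2.65 and 4.89 TPM to 71.7, 86.5, 72.2 and 57.7 TPM, a log2 rise of 4.20 (SE 0.19). No library of one age reached the range of the other for these genes. The Mymk to Myog ratio of TPM rose with them, from 0.102 ± 0.0123 to 0.189 ± 0.00888 (SD, n = 4 each), with no overlap, whereas the Mymx to Mymk ratio overlapped (0.772 ± 0.290 and 0.760 ± 0.0403).

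**Figure D2:**
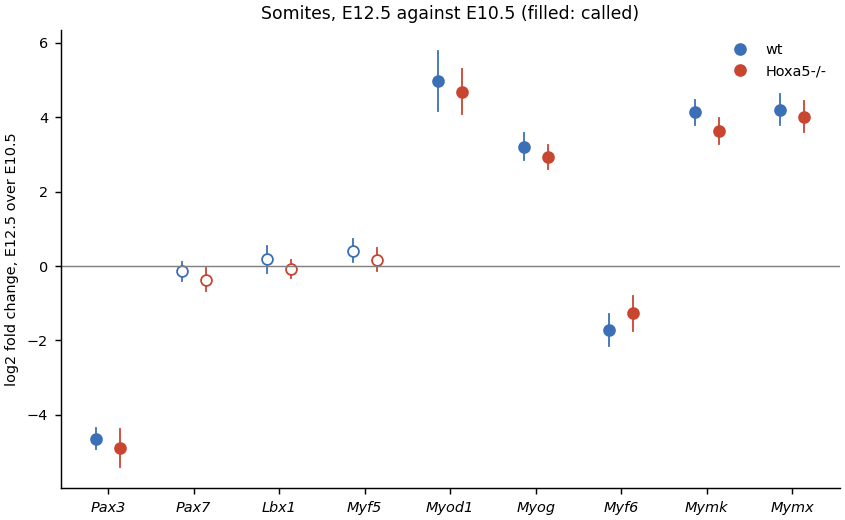
Log2 fold change of the 9 members in somites at E12.5 over E10.5 in wt and Hoxa5-/-, with 95% intervals as bars and filled points for called members. Pax3 and Myf6 fell and Myod1, Myog, Mymk and Mymx rose in both genotypes, and Pax7, Lbx1 and Myf5 were not called in either.

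By the test across all genes, 6 of 9 members were called between the ages in wt, 4 higher and 2 lower, where 42.6% of the 19773 genes tested were called, 24.1% higher and 18.4% lower. In the mutants the same count held, 4 higher and 2 lower, against 36.9% of 19632 genes (22.2% higher and 14.7% lower), and the plot of log2 changes with age shows which. The mutant log2 values were -4.89 for Pax3, 4.68 for Myod1, 2.93 for Myog, -1.27 for Myf6, 3.63 for Mymk and 4.01 for Mymx. Adjusted p was at most 4.08e-06 in wt and 0.000384 in the mutants for the called members (edgeR quasi-likelihood test, Benjamini-Hochberg). Mutant Pax7 fell by 0.36 on the log2 scale with an adjusted p of 0.0429, at 1.29-fold, so it was not called. The change with age was then compared between genotypes in 1 fit: 0 of 9 members were called (0.0147% of 20419 genes were), with 1 member at an unadjusted p under 0.05 beside 14.3% of all genes, and DESeq2 called 0. That member was Mymk, whose rise was smaller in the mutants by 0.49 (95% interval -0.97 to -0.01, adjusted p 0.347).

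The make-up of the myogenic factor pool differed with age and tissue. Of the summed TPM of Myf5, Myod1, Myog and Myf6, Myog held 58.2% ± 6.12 in wt somites at E10.5 and 71.6% ± 1.24 at E12.5 (SD, n = 4 each). Myf5 went from 21.9% ± 6.31 to 3.70% ± 0.325 and Myf6 from 14.6% ± 3.68 to 0.553% ± 0.0979, whereas Myod1 went from 5.29% ± 3.39 to 24.1% ± 1.20. In wt diaphragm Myog held 71.4% ± 0.938, Myod1 17.5% ± 2.47, Myf6 9.40% ± 2.60 and Myf5 1.76% ± 0.177 (SD, n = 4). Wt iBAT differed from both in its Myf6 share, 38.2% ± 7.79 (SD, n = 5), beside 46.6% ± 6.04 for Myog. Shares are compared across tables here as a description, with no test.

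**Figure D3:**
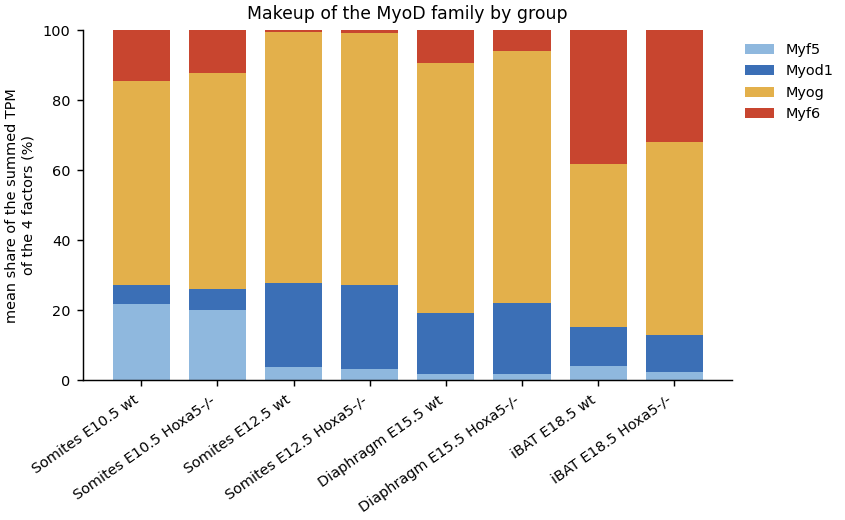
Mean share (percent) of Myf5, Myod1, Myog and Myf6 in their summed TPM in each group with enough signal, as stacked bars from 0. Myog was the largest part in every bar shown, Myf5 was above 20% in somites at E10.5, and Myf6 was above 30% in iBAT.

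Hoxa5-/- somites were next compared with wt at each age, since Hoxa5 is expressed there. Hoxa5 itself was called lower in the mutants in all 7 tissues and ages, by log2 values from -1.94 to -0.92, with no overlap of the genotypes; as the cassette leaves other exons in place, the counts check the label and not the loss of protein. At E10.5, 8 of 9 members had a positive log2 difference and Myf6 was at -0.01, from 9 tested and 0 called, where 0.0215% of 18573 genes were called. Most markers of other cell types also had a positive log2 difference at this age, with 0 called: 12 of 14 neural markers (summed level 1071–1640 TPM in wt and 1196–1667 TPM in the mutants), 5 of 6 of neural crest and glia (311–459 and 280–445 TPM), 6 of 6 epithelial markers tested (60.7–102 and 104–114 TPM) and 5 of 5 of smooth muscle (171–192 and 187–239 TPM). Their part in the member values was not tested. The smooth muscle markers include Des, which is also on the list of differentiated muscle genes. None of the 9 members had an unadjusted p under 0.05 (12.7% of all genes did), and DESeq2 also called 0. The largest was Mymk, at 9.21, 8.27 and 4.88 TPM in the mutants and 3.83, 4.57, 7.11 and 5.18 TPM in wt, a log2 difference of 0.48 (95% interval -0.06 to 1.02, adjusted p 0.399). The genotypes overlapped for every member at this age, where 7.37% of all genes did not overlap. The wt library highest for Pax3, Pax7, Myod1, Myog and Mymk was replicate 3. Without it Myod1 went from 0.33 to 1.05 and Lbx1 from 0.33 to 0.49, with adjusted p of 0.196 and 0.0572 (edgeR), and 0 members were called. With each library left out in turn, Mymk ranged from 0.33 to 0.69 (lowest adjusted p 0.107, edgeR).

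At E12.5 the somite values of the genotypes were closer. Myod1 was 168, 191, 176 and 140 TPM in wt and 172, 167, 182 and 174 TPM in the mutants, and the log2 difference was 0.05 with a 95% interval of -0.13 to 0.23. Myog differed by 0.07 (-0.08 to 0.23) and Mymk by -0.01 (-0.19 to 0.17), so intervals this narrow leave out a 1.5-fold change of either at this age. Myf6 had the widest difference, 0.44 (-0.10 to 0.98), with 4.30, 4.52, 4.26 and 2.49 TPM in wt and 6.28, 5.68, 5.73 and 3.32 TPM in the mutants. By edgeR 0 of 9 members were called, as against 0.00529% of 18906 genes, 0 had an unadjusted p under 0.05, where 3.24% of all genes did, and DESeq2 called 0. All 9 overlapped between genotypes, and 2.51% of all genes did not.

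In the diaphragm, a muscle that forms from migrated somite cells, the differentiation and commitment factors had higher means in the mutants and Myf6 a lower one, with no call. Myod1 was 298, 397, 367 and 318 TPM in wt and 489, 624, 418 and 385 TPM in the mutants. The ranges overlapped in 1 library of each genotype, and the log2 difference was 0.46 (95% interval 0.17 to 0.76, unadjusted p 0.00663, adjusted p 0.179 by edgeR's quasi-likelihood test). Myog was 1364, 1556, 1270.4 and 1475 TPM in wt and 1831, 1924, 1405 and 1617 TPM in the mutants, a log2 difference of 0.25 (0.02 to 0.48, adjusted p 0.353). Myf5 differed by 0.36 (0.01 to 0.72, adjusted p 0.371), from 29.6–41.6 TPM in wt to 37.0–59.2 TPM in the mutants.

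Myf6 went the other way, with 231, 152, 130 and 233 TPM in wt and 163, 125, 89.8 and 175 TPM in the mutants, overlapping, and a log2 difference of -0.45 (95% interval -1.07 to 0.17, adjusted p 0.531). Its share of the myogenic factor pool was 9.40% ± 2.60 in wt and 5.88% ± 1.61 in the mutants (SD, n = 4 each), with overlapping ranges. Mymk and Mymx differed by 0.20 (-0.12 to 0.52) and 0.23 (-0.03 to 0.49), and Pax3, Pax7 and Lbx1 by 0.12, 0.07 and -0.05. Of the 9 members tested 0 were called, beside 0.594% of 18019 genes, and 3 had an unadjusted p under 0.05, beside 13% of all genes. None was without overlap, as against 6.87% of all genes. DESeq2 gave Myod1 an adjusted p of 0.0235 at less than 1.5-fold, and called 0 by the same rule. Without mutant replicate 2, the highest mutant library for Pax3, Myf5, Myod1 and Myog, Myod1 differed by 0.34 (adjusted p 0.301).

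**Figure D4:**
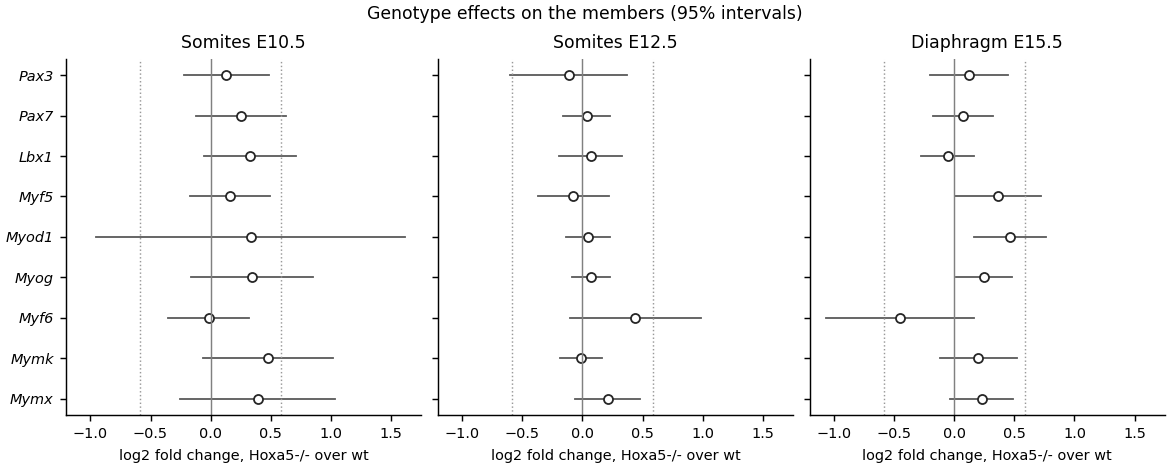
Log2 fold change of Hoxa5-/- over wt for the 9 members, with a panel for E10.5 somites, one for E12.5 somites and one for the diaphragm, and 95% intervals as bars and dotted lines at 1.5-fold. No member was called in any panel, and the widest interval was that of Myod1 in somites at E10.5, from -0.95 to 1.62.

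Other cell types also moved with genotype in the diaphragm libraries. Smooth muscle markers Actg2, Myh11 and Cnn1 were called lower in the mutants (log2 -4.63, -4.34 and -3.30), as were the glial and neural crest markers Fabp7 and Sox10 (-2.64 and -1.77). The summed level of the 5 smooth muscle markers was 2021–3254 TPM in wt and 1567–2374 TPM in the mutants, that of the 6 glial markers 167–213 and 141–175 TPM, and that of the 7 epithelial markers 33.1–304 and 21.7–108 TPM. The smooth muscle sum includes Des, also on the list of differentiated muscle genes, so it does not measure smooth muscle alone. The median log2 difference of the 5 smooth muscle markers was -3.30. The neuronal marker Tubb3 and the epithelial marker Esrp1 were called lower as well (-2.85 and -5.98). The 5 cartilage markers summed to 366 TPM in mutant replicate 3 and to at most 34.0 TPM in every other diaphragm library, with a median log2 difference of 3.18 and 0 called. Markers of liver, which lies against the diaphragm, summed to 1614–9136 TPM in wt and 369–11087 TPM in the mutants, and all 6 were higher in diaphragm than in trachea. Their part in the member values was not tested. Differentiated muscle genes, 25 on a list of contractile and receptor genes, had a median log2 difference of -0.10 beside 0.00 over all genes, with 0 called.

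In trachea the 7 members tested had fitted differences between genotypes of 1.69 to 3.34 on the log2 scale, and 1 mutant library stood above the rest for each. Myog was 8.80, 6.35, 2.03 and 7.40 TPM in wt and 2.85, 2.81, 161 and 3.83 TPM in the mutants. Mymk was 3.24, 2.09, 1.13 and 1.11 TPM in wt and 0.523, 0.0843, 68.3 and 0.854 TPM in the mutants. Mutant replicate 3 was likewise highest for Myod1 (54.5 TPM against 0.509–1.16 in the other mutants), Myf6 (21.5 against 0–0.227), Mymx (21.3 against 0.124–0.837), Myf5 (7.13 against 0.531–1.58) and Pax7 (6.52 against 0.782–0.847), on 123 to 1998 counts per gene for these members. Pax3 stood at 0.0391 TPM there and Lbx1 at 0.438 TPM, so these were not raised to such levels. The 25 differentiated muscle genes summed to 9742 TPM in that library, to 1587–3445 TPM in the other mutants and to 3251–6286 TPM in wt. Heart muscle also expresses several genes of that sum, and 6 heart markers gave 2974–5346 TPM in wt trachea and 1482–2879 TPM in the mutants, with 2633 TPM in mutant replicate 3. The 5 cartilage markers summed to 4001 TPM in mutant replicate 3, to 943–1665 TPM in the other mutants and to 1170–1647 TPM in wt. The part of these tissues in the member values was not tested. Hoxa5 was 20.9 TPM in mutant replicate 3 and 29.1–37.7 TPM in the other mutants, where wt had at least 76.3 TPM.

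No member was called in trachea, beside 0.0156% of 19220 genes, at adjusted p from 0.682 to 0.777. By DESeq2 0 were called, and Pax7 and Myf5 had an unadjusted p under 0.05 in edgeR (6.7% of all genes did). Pax7, Myf5, Myf6 and Mymx passed the 1 TPM minimum only through the mutant group, which that library raised. Without mutant replicate 3 the fitted log2 values were -0.94 for Myog, -0.88 for Myod1, -1.95 for Mymk and 0.49 for Myf5, with adjusted p from 0.281 to 0.613, and Pax7, Myf6 and Mymx were no longer tested. With all 8 libraries, Pax7 was the 1 member of 7 whose ranges did not overlap, beside 3.74% of all genes.

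**Figure D5:**
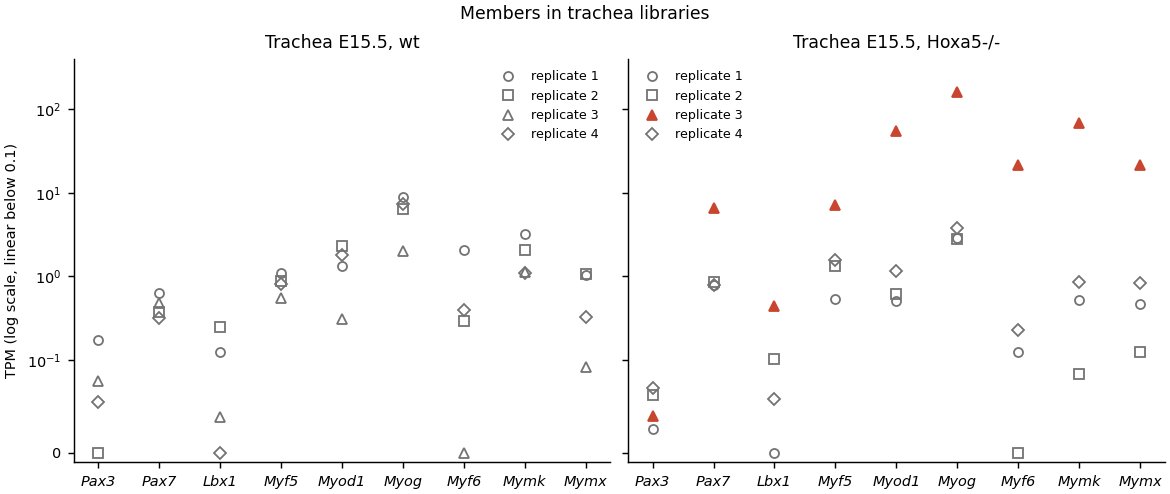
TPM of the members in each trachea library at E15.5, wt on the left and Hoxa5-/- on the right, with 1 symbol per replicate, on an axis that is logarithmic above 0.1 TPM and linear below it. Mutant replicate 3, filled, was above all other trachea libraries for every member but Pax3.

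Lung gave few counts. At E12.5 only Myod1 and Myog were tested, and both passed through 1 library, mutant replicate 4, at 5.49 and 10.3 TPM (55 and 83 counts) against 0.295–0.599 and 0.184–0.734 TPM in the other mutants. The wt libraries held 0.177–0.539 TPM of Myod1 and 0–0.462 TPM of Myog. The log2 differences were 1.92 and 2.90 with adjusted p of 0.632 and 0.604, 0 of 2 were called beside 0.0798% of 17548 genes, and DESeq2 called 0. Myog had an unadjusted p under 0.05, as 8.01% of genes did, and both overlapped between genotypes, as all but 4.09% of genes did. Without that library neither was tested. The same library had 1.17 TPM of Pax7 and 1.12 TPM of Lbx1, the highest lung values of both, and a differentiated muscle sum of 144 TPM beside at most 110 TPM in wt. At E15.5 no member reached a mean of 1 TPM in either genotype and none was tested, beside 0.124% of 17777 genes called.

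In iBAT the 4 tested members were lower on average in the mutants. Myod1 and Mymk passed the 1 TPM minimum only through the wt group, with means of 1.11 and 1.53 TPM against 0.684 and 0.884 TPM in the mutants. For these the lower mean in the mutants was set by that minimum. Myog was 10.9, 4.91, 2.16, 2.42 and 3.42 TPM in wt and 4.71, 7.21, 4.18, 2.24 and 1.18 TPM in the mutants, a log2 difference of -0.26 (95% interval -1.24 to 0.72). Myf6 was 6.15, 2.90, 2.66, 2.31 and 3.03 TPM in wt and 1.69, 3.90, 2.69, 0.771 and 1.60 TPM in the mutants, a difference of -0.64 (-1.42 to 0.13). Myod1 and Mymk differed by -0.67 and -0.76, every range overlapped (0.316% of all genes did not), and the intervals of all 4 spanned 0.

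Wt replicate 1 was the highest iBAT library of its group for these 4 members, and without it Myog turned to 0.29 and Myf6 and Mymk stood at -0.33 and -0.22, while Myod1 was no longer tested. By edgeR 0 of 4 members were called (0.00657% of 15212 genes were), with 0 at an unadjusted p under 0.05 where 2.47% of all genes were, and DESeq2 called 0. All 18 differentiated muscle genes tested in iBAT were lower on average in the mutants, with a median log2 difference of -0.70 beside -0.0010 over all genes and 0 called. Ttn among them passed the 1 TPM minimum only through wt, at 1.09 TPM against 0.679 TPM in the mutants. The whole list summed to 3332 TPM in wt replicate 1, 824–1312 TPM in the other wt and 484–1257 TPM in the mutants. How much skeletal muscle each piece of tissue carried was not measured apart from these genes.

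Diaphragm was set against trachea to give the size of a muscle signal within 1 table. All 9 members were called higher in diaphragm in wt, by 5.70 (Myf5) to 8.72 (Lbx1) on the log2 scale, with 32.5% of 19730 genes called and 14.1% called higher, and none overlapped between the tissues, as for 54% of all genes. In the mutants all 9 were called too, by 4.34 to 8.07, with 35.8% of 19592 genes called and 15.6% called higher. In wt, Pax3, Pax7, Myf5, Myf6, Lbx1 and Mymx had trachea means under 1 TPM (0.076 to 0.833). They passed the 1 TPM minimum only through diaphragm, so their mean TPM could only be higher there. In the mutants the same held for Pax3 and Lbx1. Adjusted p was at most 2.19e-05 in wt and 0.0153 in the mutants (edgeR quasi-likelihood test, Benjamini-Hochberg). Without mutant trachea replicate 3 the mutant values were higher for 8 members, among them Myog at 9.37, Myod1 at 9.59, Mymk at 10.15 and Myf6 at 10.44, in place of 5.57, 5.32, 4.90 and 4.89. For Mymx, Lbx1, Pax7 and Myf5 they were 9.21, 9.50, 5.86 and 5.57, in place of 5.54, 8.07, 4.34 and 4.34. In wt, Myf6 and Pax3 moved to 10.12 and 7.02 without trachea replicate 1 and Lbx1 to 9.61 without trachea replicate 2. Lbx1, a marker of migrated progenitors, was 34.5–39.7 TPM in wt diaphragm and 0–0.245 TPM in wt trachea. The genotype difference between the tissues gave 0 calls of 9 beside 0.439% of 20289 genes, with 3 (Pax7, Myf6 and Mymx) at an unadjusted p under 0.05 beside 9.07% of all genes and 0 by DESeq2. Without mutant trachea replicate 3 these were at -0.71, 1.87 and 0.63 on the log2 scale, in place of -2.24, -3.66 and -3.04.

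iBAT at E18.5 was set against somites at E12.5, which differ in tissue and age at once. The iBAT label matched its markers, since 6 of 6 brown fat genes were called higher in iBAT in each genotype. In wt 8 members were called lower in iBAT, where 66.3% of 19369 genes were called and 35.3% called lower, and in the mutants 8 of 9 were, where 65.7% of 19393 genes were called and 33.8% called lower. Apart from Pax3, their log2 values in wt ran from -2.70 for Lbx1 to -6.19 for Pax7, beside a median of -0.16 over all genes. Pax3, Pax7, Myf5, Lbx1 and Mymx had iBAT means under 1 TPM in both genotypes, as did Myod1 and Mymk in the mutants. These passed the 1 TPM minimum only through somites, so their mean TPM could only be lower in iBAT. The scale of these fits differed from TPM: Hoxa5 was fitted at 0.12 in wt, with mean TPM of 48.3 in iBAT and 102.7 in somites. Pax3, without a count in iBAT, was at least 54.7-fold lower in wt and at least 51.3-fold lower in the mutants on the TMM scale of the fits, taking 3 counts over the group as the floor. On the TPM scale the same floor gave at least 126.6-fold and 128.4-fold. Without iBAT wt replicate 1 the wt values of Myf5 and Myod1 were -5.34 and -6.66, in place of -4.40 and -6.01, and in the mutants Mymk was -6.25 without iBAT replicate 2 and Mymx -6.44 without iBAT replicate 4, in place of -5.39 and -5.68. Myf6 was the exception, called higher in wt, as 31% of all genes were, at 1.02 (adjusted p 0.00466, edgeR), although its TPM ranges overlapped (2.31–6.15 in iBAT and 2.49–4.52 in somites) and its mean TPM was the lower in iBAT. In the mutants it was at 0.01 (adjusted p 0.975).

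Genes that act with the members were taken from lists by role, and their counts with age stand beside 24.1% of all genes called higher and 18.4% lower in wt, and 22.2% and 14.7% in the mutants. Of 13 upstream regulators of the myogenic factors, 5 were called higher and 3 lower in wt somites at E12.5 than at E10.5, led by Pitx3 (4.40) and Msc (3.12) and by Tcf21 (-1.08) and Dmrt2 (-1.03) on the log2 scale. Pitx3 is a homeobox factor of the myotome, and Msc and Tcf21 are basic helix-loop-helix factors of muscle precursors. In the mutants 4 rose and 4 fell. Of 5 genes of progenitor migration, Gab1 (1.11) and Hgf (0.79) rose and the chemokine receptor Cxcr4 (-1.37) fell in wt. Of 16 partners and antagonists, 6 rose in wt and 5 in the mutants, with none lower, led by the myostatin antagonist Fst (2.50) and the cofactor Mef2c (2.12). Of 19 other fusion and adhesion genes, 9 rose and 4 fell in wt, among them Myof (3.92), the muscle cadherin Cdh15 (2.45), Nphs1 (-2.77) and Jam2 (-1.35), and in the mutants 7 rose and 3 fell of 18.

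Of the 24 differentiated muscle genes tested, 24 rose with age in each genotype, with medians of 3.11 in wt and 2.96 in the mutants beside -0.04 and -0.02 over all genes. Myh8 (5.98) and Tnni2 (5.62), a perinatal myosin and a fast troponin, rose most in wt. Between diaphragm and trachea the same list gave 25 of 25 called higher in wt and 24 of 25 in the mutants, beside 14.1% and 15.6% of all genes. The largest in wt were the acetylcholine receptor subunits Chrng (9.66) and Chrnd (8.69). Between iBAT and somites 16 of 24 were lower in wt and 3 higher, beside 35.3% and 31% of all genes, with a median of -2.82 beside -0.16 over all genes. Ckm stood at 3.58 and Tnni2 at 1.83 there, and Musk at -5.67 and Chrna1 at -4.70. Between genotypes, 1 gene of the lists by role was called in any tissue: Tcf21 was lower in mutant diaphragm by 3.55 on the log2 scale (adjusted p 0.0314, edgeR), from a mean of 18.9 TPM in wt to 1.59 TPM. Tcf21 is not limited to muscle tissue, with a mean of 235 TPM in wt lung at E15.5. In the same diaphragm comparison the median log2 difference was -3.65 for epithelial markers and -3.30 for smooth muscle markers. The part of other cell types in the Tcf21 value was not tested.

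Patterns over all 57 libraries were most like the members' in these genes, by Pearson correlation of log2(TPM + 1) among 13780 genes and as a description, since the libraries share tissue, depth and centre. Myod1 was closest to Pitx3 (0.987), Chrna1 (0.987) and Vgll2 (0.984), and Myog to Mybph (0.988), Vgll2 (0.985) and Cdh15 (0.985). Mymk was closest to Mylk4, Neb and Klhl40, each at 0.991. Among the genes most like Pax7 were Mstn (0.980) and Dbx1 (0.976), and among those most like Lbx1 were Dbx1 (0.968) and Fgf6 (0.963), where Mstn and Fgf6 are known from muscle and Dbx1 also from neurons. Pax3 was closest to Btbd17 (0.972), Pou3f4 (0.961) and Dll1 (0.953).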

How the data were processed

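RNA from whole tissue was sequenced in 57 libraries, single-end with 100 bases (respiratory and diaphragm) or paired-end with 150 bases (somites and iBAT). Raw counts per gene were made by the authors with featureCounts 2.0.3 after alignment to GRCm39 in STAR 2.7.9a of reads that Trim Galore 0.6.5 had trimmed, and the deposited counts were used as they stand. The strand setting is not given in the sources used here. The deposited TPM tables were made by the authors from the same reads, scaled by exon length and library size, and were used for levels, ratios and shares. Library totals were 18369905 to 72991481 counts, which limits genes at a few counts.

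Counts were tested in edgeR 4.0.16 (R 4.3.3) with TMM normalization and the quasi-likelihood test, fitted on all genes with a mean of at least 1 TPM in either group, with Benjamini-Hochberg adjustment over them. A gene was called at an adjusted p under 0.05 and at least 1.5-fold. Fits held only the groups compared, or the 4 groups of a difference between differences. The p-values measure the spread between these libraries, which the labels number within groups. Alternatives were DESeq2 1.42.0, edgeR with the size factors of DESeq2, a filter at 10 counts where the main one used TPM, no filter, no fold minimum, 1 fit for a whole table, a replicate block, each library left out, and limits of 0.5 and 5 TPM for a gene to count as present. Replicate numbers were checked as pairs of wt and mutant: every same-numbered pair deviated together with a correlation above 0.1 only in iBAT (0.133 to 0.443 over 5 pairs). In diaphragm 3 of 4 pairs did (-0.0393 to 0.656). In lung at E15.5, trachea and E12.5 somites 2 of 4 did (highest 0.707, 0.509 and 0.454), and in E10.5 somites and E12.5 lung 0 did. This was taken from the data and the numbers, and not from a stated litter. The iBAT sample names also share leading numbers between genotypes, and a block on these called 0 members.

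The 9 members were named throughout, and of each companion list the genes called with the 2 largest rises and 2 largest falls. For 6 members the 3 most alike genes were taken, among protein-coding genes with a mean of at least 5 TPM in some group. Some genes and a sequence that these rules select are not reported here. The members and lists were chosen with earlier results of these data known. Promoter windows were read from the GRCm39 assembly at the deposited annotation's starts. Scripts were tested on simulated counts.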

Additional observations from a re-analysis of the deposited data

Results flagged for a closer look

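Within groups of 4 or 5 libraries, a member's TPM was marked where its gap to the nearest library, divided by the range of the group, passed Dixon's 95% critical value. Of 63 such groups tested with a group mean of at least 1 TPM, 16 were marked. Some groups passed that minimum only through the marked library, such as Mymk in mutant trachea (68.3 TPM, others at most 0.854 TPM). The count can therefore not be set against the 1 in 20 that chance would mark. In trachea, Hoxa5-/- replicate 3 stood apart for 7 members: Pax7 at 6.52 TPM, Myf5 at 7.13 TPM, Myod1 at 54.5 TPM, Myog at 161 TPM, Myf6 at 21.5 TPM, Mymk at 68.3 TPM and Mymx at 21.3 TPM. In lung at E12.5, Hoxa5-/- replicate 4 stood apart for Myod1 (5.49 TPM) and Myog (10.3 TPM). In iBAT, wt replicate 1 stood apart for Myod1 (2.698 TPM), Myf6 (6.15 TPM) and Mymk (3.40 TPM).

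Pax3 was 7.29 TPM in diaphragm Hoxa5-/- replicate 2, with the nearest library at 5.10 TPM. Pax7 was 25.2 TPM in somites at E10.5, wt replicate 3, with the nearest at 16.7 TPM. Somites at E12.5, wt replicate 4, was low for Myf6 (2.49 TPM, nearest 4.26 TPM) and Lbx1 (8.19 TPM, nearest 10.8 TPM). These 16 marks fell in 6 libraries.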

How the results depend on the processing

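Between genotypes 0 members were called under every alternative run. Single fitted values changed sign when 1 library was left out, and for trachea and its difference from diaphragm that library was mutant trachea replicate 3. In trachea the log2 ranges were -0.88 to 3.74 for Myod1, -0.94 to 3.21 for Myog and -1.95 to 3.63 for Mymk, and in diaphragm -0.0068 to 0.193 for Pax3 and -0.102 to 0.022 for Lbx1. In somites at E10.5 they were -0.13 to 0.26 for Pax3, -0.19 to 1.05 for Myod1 and -0.100 to 0.068 for Myf6. In somites at E12.5 they were -0.26 to 0.061 for Pax3, -0.013 to 0.094 for Pax7, -0.027 to 0.123 for Myod1, -0.021 to 0.118 for Lbx1 and -0.080 to 0.056 for Mymk, and in iBAT -0.55 to 0.29 for Myog. With age in wt somites Pax7 ranged from -0.19 to 0.0013. For Myf6 in iBAT over somites in the mutants the range was -0.31 to 0.22. For the change with age between genotypes the ranges were -0.40 to 0.0073 for Pax3, -1.01 to 0.23 for Myod1 and -0.33 to 0.10 for Mymx. For the genotype difference between diaphragm and trachea they were -3.35 to 1.33 for Myod1, -2.99 to 1.19 for Myog, -5.23 to 1.87 for Myf6, -1.54 to 0.78 for Lbx1, -3.47 to 2.19 for Mymk and -3.50 to 0.63 for Mymx.

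Myf6 in iBAT over somites in the mutants was also below 0 with DESeq2 (-0.021), with its size factors (-0.018), without a filter (-0.11) and in 1 fit for the table (-0.090). The replicate block gave -0.0010 there and changed no call of a member. In diaphragm between genotypes it gave Myf6 an adjusted p of 0.0141 (edgeR) and put that of Myod1 under 0.05, both at less than 1.5-fold. In mutant diaphragm over trachea it moved Myog, Myod1, Mymk, Myf6, Mymx and Pax7 to 8.17, 7.61, 7.51, 6.36, 6.56 and 4.96. In DESeq2, 4 of 9 members were called in that comparison, since 5 had no adjusted p under its rule on outlying counts. Outside iBAT the labels link samples by a number alone, although 3 of 4 same-numbered diaphragm pairs of wt and mutant deviated together. The members present in wt were 6 in trachea and 7 in iBAT at 0.5 TPM, 1 in trachea and 0 in iBAT at 5 TPM, and 1 in lung at E12.5 at 0.5 TPM, where the limit of 1 TPM gave 3, 4 and 0. DESeq2 fitted Pax3 in iBAT over somites at -7.44 in wt and -7.42 in the mutants, in place of -8.65 and -8.50. At the low counts of lung, iBAT and most trachea libraries, only large differences could be detected.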
